A study of Mus musculus with 12 samples.

Results

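Cyclins bind and switch on the cyclin-dependent kinases that carry a cell through its division. The 9 cyclin genes described here are the A-type Ccna1 and Ccna2, the B-type Ccnb2 and Ccnb3, the D-type Ccnd1, Ccnd2 and Ccnd3, and the E-type Ccne1 and Ccne2. They were taken by name, with earlier results of these data known, and each was read by 1 probe set, the only one that names that gene alone. They are 9 of 19946 genes measured. Ccnb1 has no probe set of its own gene alone and was not analysed here.

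The values come from whole testes of adult male mice of a mixed 129/C57BL6 background, measured on 12 arrays. Every animal had been treated as a pup with WIN 18,446, which blocks retinoic acid synthesis, at 100 ug per gram of body weight for 7 days from day 2 to day 8 after birth, then with 200 ug of retinoic acid on day 9, and was left for 43 to 49 days. The treatment makes the tubules of a testis run through the cycle of the seminiferous epithelium together, so that a whole testis reads a part of that cycle. There are 6 groups of 2 samples named after their stages. In the order of the cycle they are XII-I, then II-IV and IV-VI, then VII, then VIII-IX and last IX-XI, and all 6 share the treatment, so no untreated testis stands beside them. The labels do not state that the 2 samples of a group are separate animals, and p-values measure the spread between these samples only.

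In the textbook account of the mouse cycle, spermatogonia divide by mitosis in several stages, preleptotene spermatocytes copy their DNA around stages VII and VIII, leptotene and zygotene spermatocytes follow in stages IX to XII, and the meiotic divisions take place in stage XII. D-type cyclins work with Cdk4 and Cdk6 and relieve the block set by the retinoblastoma protein, E-type cyclins work with Cdk2 at the start of DNA replication, A-type cyclins act in replication and on entry to division, and B-type cyclins work with Cdk1 in division itself. Cyclin A1 is needed for male mouse spermatocytes to enter the meiotic divisions, and cyclin B3 is known in mouse testis from leptotene and zygotene spermatocytes. In a whole-tissue sample, fewer cells of a type and less RNA per cell cannot be told apart.

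The deposited values are array intensities made with RMA. They were taken to log2, so that 1 unit is a 2-fold difference, and "level" below means a log2 intensity. The median intensity of an array lay between 296.9 and 309.1. The 2 arrays of a group correlated over genes at 0.987 to 0.995. Several arrays correlated more closely with an array of a neighbouring group than with their own partner: XII-I sample 2 with II-IV sample 2 at 0.998 (partner 0.988), II-IV sample 1 with IV-VI sample 2 at 0.998 (partner 0.987), IV-VI sample 1 with VII sample 1 at 0.997 (partner 0.995), and VIII-IX sample 2 with IX-XI sample 1 at 0.995 (partner 0.992). Levels of different probe sets are not set against each other. Spermatogonia, spermatocyte and spermatid markers all had mean levels above those of the dimmest 30% of genes. Of the 8 in each list, 0 spermatogonia, 1 spermatocyte (Dmc1) and 2 spermatid markers (Tnp1 and Tnp2) passed limma's F test over the groups. Of all genes, 19.9% passed it, and these lists were not tested against that share. The summed intensity of the spermatogonia markers lay between 4508 and 5442 over all arrays. That of the spermatocyte markers lay between 20526 and 25639, and that of the spermatid markers between 48270 and 65279.

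Limma's F test over the 6 groups passed for 6 of the 9 cyclins (adjusted p under 0.05), against 19.9% of all genes: Ccna1, Ccnb2, Ccnb3, Ccnd1, Ccne1 and Ccne2. The other 3, Ccna2, Ccnd2 and Ccnd3, did not pass. The median range between a gene's highest and lowest group mean was 0.799 log2 for the cyclins and 0.341 log2 for all genes. The 6 that passed had their highest means in 5 different groups. Ccna1 and Ccne1 were highest in XII-I, Ccnb2 in II-IV, Ccnd1 in IV-VI, Ccnb3 in VIII-IX and Ccne2 in IX-XI. The count of 6 was 2 without IV-VI sample 1, VII sample 2, VIII-IX sample 1 or VIII-IX sample 2, and 3 without IV-VI sample 2, IX-XI sample 1 or IX-XI sample 2. It was 0 when sample 2 of VIII-IX and of IX-XI were both left out, a setting in which 19 genes in all passed.

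**Figure D1:**
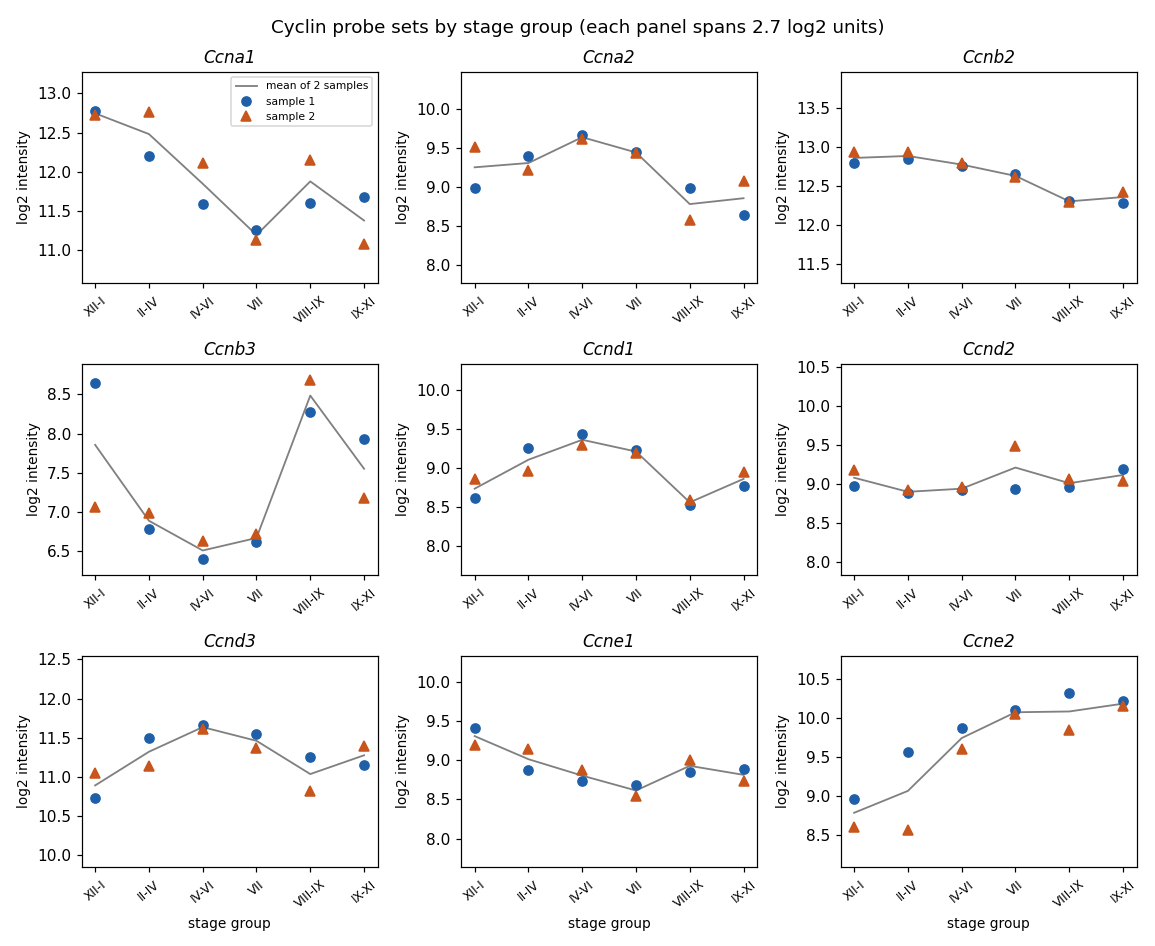
Level of each cyclin in log2 intensity (vertical axis, of the same span in every panel) by stage group in the order of the cycle (horizontal axis). Circles are sample 1, triangles sample 2 and the line joins the means of 2 samples. Ccnb3 spans the widest range of group means, 1.98 log2, and Ccnd2 the narrowest, 0.31.

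Ccna1 (probe set 10498192), the cyclin A of male meiosis, was at 12.77 and 12.72 in XII-I, 12.20 and 12.76 in II-IV, 11.58 and 12.11 in IV-VI, 11.25 and 11.13 in VII, 11.60 and 12.15 in VIII-IX, and 11.67 and 11.08 in IX-XI. Both XII-I samples and II-IV sample 2 were high, and both VII samples and IX-XI sample 2 were low. The XII-I mean of 12.75 ± 0.04 (SD, n = 2) was 2.94-fold above the VII mean of 11.19 ± 0.09. In the order of the levels, XII-I and II-IV overlapped, II-IV lay apart from VIII-IX, and VIII-IX, IV-VI, IX-XI and VII each overlapped the next. The F test gave an adjusted p of 0.023 in limma, which was 0.051 without XII-I sample 1 and 0.057 without VII sample 2. XII-I exceeded the mean of the other 5 groups, 11.75, by 1.00 ± 0.21 (SE, n = 2 against 10 arrays; adjusted p = 0.026), and this call ended when XII-I lost its sample 1 (adjusted p = 0.14) or its sample 2 (0.086) and with array quality weights (0.067).

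Ccna2 (10497831), the cyclin A of mitotic cells, was at 8.99 and 9.51 in XII-I, 9.40 and 9.21 in II-IV, 9.66 and 9.61 in IV-VI, 9.45 and 9.43 in VII, 8.98 and 8.58 in VIII-IX, and 8.64 and 9.07 in IX-XI. Both IV-VI samples lay above every other array, and VIII-IX sample 2 was the lowest. The IV-VI mean was 9.64 ± 0.03 and the VIII-IX mean 8.78 ± 0.28 (SD, n = 2 each), a ratio of 1.81. IV-VI lay apart from VII and VII from II-IV, while II-IV, XII-I, IX-XI and VIII-IX each overlapped the next. The F test did not pass (adjusted p = 0.058 in limma). It passed when XII-I lost its sample 1 (0.038) or its sample 2 (0.035), without the dimmest probe sets (0.047) and with array quality weights (0.030).

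The 2 A-type cyclins had a Pearson correlation of -0.05 over the 12 arrays, which is given as a description. Whether the log2 difference between 2 cyclins on the same array varied among the groups was asked with an exact permutation test over the 10395 ways to split 12 arrays into 6 pairs, whose smallest possible p is 9.6e-05. For Ccna1 minus Ccna2 the difference was 3.50 in XII-I and 1.75 in VII, with an exact p = 0.10 (one-sided, adjusted p = 0.15 over 6 pairs of cyclins).

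Ccnb2 (10594774), a cyclin B that works with Cdk1, was the cyclin with the smallest spread between samples of a group. It was at 12.79 and 12.93 in XII-I, 12.84 and 12.93 in II-IV, 12.76 and 12.79 in IV-VI, 12.65 and 12.61 in VII, 12.31 and 12.30 in VIII-IX, and 12.29 and 12.43 in IX-XI. All 4 samples of VIII-IX and IX-XI lay below all 8 others. II-IV, XII-I and IV-VI each overlapped the next, IV-VI lay apart from VII and VII from IX-XI, and IX-XI and VIII-IX overlapped. The range was 1.49-fold between II-IV and VIII-IX (F test, adjusted p = 0.013 in limma), and the call held whichever single array was left out (0.011 to 0.041). Ccnb2 was lower in VIII-IX than in the other groups (difference -0.40 ± 0.07 log2, SE, n = 2 against 10; adjusted p = 0.017). It was also lower in IX-XI (difference -0.33, adjusted p = 0.035) and higher in XII-I (difference 0.27, adjusted p = 0.040).

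These Ccnb2 calls depended on single arrays to different degrees. The fall in VIII-IX was no longer called without sample 1 of that group (adjusted p = 0.14) or without its sample 2 (0.096). The IX-XI call ended without IX-XI sample 1 (0.33), IX-XI sample 2 (0.20), IV-VI sample 1 (0.055), IV-VI sample 2 (0.076), VII sample 2 (0.052) or VIII-IX sample 2 (0.053). The XII-I call passed in 2 of the 12 leave-outs, those of II-IV sample 2 (0.032) and VIII-IX sample 2 (just under the threshold). It ended without XII-I sample 1 (0.11), XII-I sample 2 (0.23), II-IV sample 1 (0.054), IV-VI sample 1 (0.081), IV-VI sample 2 (0.063), VII sample 1 (0.056), VII sample 2 (0.058), VIII-IX sample 1 (0.062), IX-XI sample 1 (0.064) or IX-XI sample 2 (0.061), and with array quality weights (0.084).

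Ccnb3 (10603275), an X-linked cyclin B of early meiotic prophase, had the widest range of the 9. It was at 8.65 and 7.06 in XII-I, 6.78 and 6.99 in II-IV, 6.39 and 6.62 in IV-VI, 6.61 and 6.72 in VII, 8.28 and 8.69 in VIII-IX, and 7.93 and 7.17 in IX-XI. Both VIII-IX samples and XII-I sample 1 were high, and XII-I sample 2 was far below its partner, near II-IV sample 2. The VIII-IX mean of 8.49 ± 0.29 was 3.95-fold above the IV-VI mean of 6.50 ± 0.16 (SD, n = 2 each; F test, adjusted p = 0.046 in limma). The probe set is dim: its mean over the 12 arrays was 7.32, at percentile 26.7 among all genes. The 2 IV-VI arrays read intensities of only 83.9 and 98.2, so the fold rests on low values. VIII-IX, XII-I and IX-XI each overlapped the next, IX-XI lay apart from II-IV and II-IV from VII, and VII overlapped IV-VI. Its mean in VIII-IX exceeded that of the other groups, 7.09, by 1.39 ± 0.34 (SE, n = 2 against 10; adjusted p = 0.040). Dmc1, a recombinase of early meiotic prophase and a spermatocyte marker, was also highest in VIII-IX, 2.45-fold above VII. The other 7 markers of that list did not pass. Of these, Spo11 was also highest in VIII-IX, while Sycp1 and Hormad1 were lowest there. The list's part in the Ccnb3 result was not tested.

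The Ccnb3 F call passed in 2 of the 12 leave-outs, those of XII-I sample 1 or XII-I sample 2, where the lowest adjusted p was 0.0074. It ended without II-IV sample 1 (0.065), II-IV sample 2 (0.062), IV-VI sample 1 (0.11), IV-VI sample 2 (0.097), VII sample 1 (0.078), VII sample 2 (0.086), VIII-IX sample 1 (0.098), VIII-IX sample 2 (0.14), IX-XI sample 1 (0.069) or IX-XI sample 2 (0.063). It also ended with repeated quantile normalization (0.059) and with a replicate block (0.054). The VIII-IX difference lost its call without either VIII-IX sample (0.18 and 0.20), either IV-VI sample (0.067 and 0.068), either VII sample (0.060 and 0.062), II-IV sample 1 (0.058) or IX-XI sample 2 (0.071), and with array quality weights (0.080).

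The difference Ccnb2 minus Ccnb3 was 6.27 in IV-VI and 3.82 in VIII-IX. It varied among the groups with p = 0.034 in the exact permutation test, which did not hold after adjustment over the 6 pairs (adjusted p = 0.10).

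The promoters of Ccna1, Ccnb2 and Ccne1 are shown because each of these 3 genes was called higher in XII-I than in the other groups. Their courses were not all alike. Ccnb2 was highest in II-IV and had a Pearson correlation of 0.57 with Ccna1 and 0.34 with Ccne1. Ccna1 and Ccne1 correlated at 0.91. Each sequence is the 250 bases before the gene's start from RefSeq (GRCm38.p6), read 5′ to 3′ on the gene's strand. Capitals mark matches on either strand to CCAAT (the CCAAT box, bound by NF-Y), TTTGAA (the cell cycle genes homology region, CHR) and GGGCGG (the GC box).
Ccna1, chr3:55055056-55055305, minus strand: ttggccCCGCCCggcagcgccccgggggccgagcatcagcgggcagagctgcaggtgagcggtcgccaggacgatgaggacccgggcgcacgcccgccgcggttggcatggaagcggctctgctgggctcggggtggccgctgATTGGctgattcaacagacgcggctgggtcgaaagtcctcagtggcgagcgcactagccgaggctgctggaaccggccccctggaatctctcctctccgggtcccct
Ccnb2, chr9:70421555-70421804, minus strand: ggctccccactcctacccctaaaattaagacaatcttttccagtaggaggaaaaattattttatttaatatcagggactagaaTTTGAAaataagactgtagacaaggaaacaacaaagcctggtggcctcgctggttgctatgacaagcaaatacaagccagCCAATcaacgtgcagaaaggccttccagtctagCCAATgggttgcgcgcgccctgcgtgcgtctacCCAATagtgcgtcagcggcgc
Ccne1, chr7:38107491-38107740, minus strand: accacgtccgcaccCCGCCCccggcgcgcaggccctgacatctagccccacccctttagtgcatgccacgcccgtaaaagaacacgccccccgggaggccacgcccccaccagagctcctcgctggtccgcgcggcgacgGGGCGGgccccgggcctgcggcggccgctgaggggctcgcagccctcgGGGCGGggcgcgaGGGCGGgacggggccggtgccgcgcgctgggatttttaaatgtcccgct
Ccnb2 holds 3 CCAAT motifs on the gene strand, which begin 87, 54 and 21 bases before the start and are each 33 bases from the next. TTTGAA begins 167 bases before the start of Ccnb2, and again at base 5 after it, in bases not printed. Ccna1 holds 1 CCAAT on the other strand, 107 bases before the start, and Ccne1 has none. GGGCGG has 4 matches in Ccne1 and 3 in Ccna1, the latter 244 bases before the start and at bases 17 and 21 after it. Ccnb2 has 1 such match, at base 20 after the start. The matches after the start lie in bases not printed. Of 32851 promoters, and over 300 bases that include the first 50 of each transcript, 37.4% hold CCAAT, 17.9% TTTGAA and 35.7% GGGCGG. TTTNNCGC (an E2F motif, in 5.17% of promoters) and TGACGTCA (the cAMP response element, in 1.79%) matched none of the promoters of Ccna1, Ccnb2, Ccnb3, Ccnd3 and Ccne1. No promoter entry was found for Ccna2, Ccnd1, Ccnd2 and Ccne2, so theirs were not searched. The Ccnb3 promoter matched none of the 5 motifs. A match of letters is a description and does not show that a factor binds.

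Ccnd1 (10569646), a D-type cyclin, was at 8.61 and 8.86 in XII-I, 9.25 and 8.96 in II-IV, 9.43 and 9.29 in IV-VI, 9.23 and 9.19 in VII, 8.53 and 8.59 in VIII-IX, and 8.77 and 8.95 in IX-XI. Both IV-VI samples were above every other array and both VIII-IX samples below every other array. The IV-VI mean of 9.36 ± 0.10 was 1.74-fold above the VIII-IX mean of 8.56 ± 0.04 (SD, n = 2 each; F test, adjusted p = 0.019 in limma). IV-VI lay apart from VII, VII overlapped II-IV, II-IV lay apart from IX-XI, IX-XI overlapped XII-I, and XII-I lay apart from VIII-IX. VIII-IX was below the other groups, with a difference of -0.50 ± 0.10 log2 (SE, n = 2 against 10; adjusted p = 0.023). The F call ended without IV-VI sample 1 (0.053), VIII-IX sample 1 (0.054) or VIII-IX sample 2 (0.051). The VIII-IX call ended without either VIII-IX sample (0.18 and 0.11) and with array quality weights (0.055).

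Ccnd3 (10445688), a D-type cyclin known from Sertoli and Leydig cells as well as germ cells, was at 10.73 and 11.05 in XII-I, 11.50 and 11.14 in II-IV, 11.66 and 11.61 in IV-VI, 11.55 and 11.37 in VII, 11.25 and 10.82 in VIII-IX, and 11.15 and 11.40 in IX-XI. Both IV-VI samples lay above every other array, and XII-I sample 1 was the lowest. Its range was 1.68-fold between IV-VI and XII-I and did not pass the F test (adjusted p = 0.081 in limma), except with array quality weights (0.047). IV-VI lay apart from VII, and VII, II-IV, IX-XI, VIII-IX and XII-I each overlapped the next.

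Ccnd2 (10548105), the third D-type cyclin, was at 8.98 and 9.18 in XII-I, 8.88 and 8.92 in II-IV, 8.92 and 8.96 in IV-VI, 8.93 and 9.49 in VII, 8.96 and 9.06 in VIII-IX, and 9.19 and 9.04 in IX-XI. All neighbours in the order of its levels overlapped, and VII sample 2 alone stood above 9.19. The F test gave an adjusted p of 0.64 in limma (0.069 without VII sample 1, which leaves VII sample 2 as its group). VII sample 2 also had the highest summed intensity of the Sertoli markers, 20713 against 15197 on VII sample 1, of the Leydig markers, 14224 against 10280, and of the macrophage markers, 2400 against 1327. On the other 10 arrays these sums lay between 13666 and 15732, between 5773 and 10779, and between 1414 and 2076. The sums of the peritubular myoid and endothelial markers were highest on VII sample 2 as well. They were 4790 and 1191, against 4165 and 1044 on VII sample 1. Of 9 Sertoli, 4 Leydig and 4 macrophage markers measured, 0, 0 and 1 (Adgre1) passed limma's F test, against 19.9% of all genes. The part of these markers in the Ccnd2 value was not tested.

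Over the 12 arrays Ccnd1 and Ccnd3 had a Pearson correlation of 0.86, Ccnd1 and Ccna2 of 0.83, and Ccnd1 and Ccnd2 of -0.09. Ccnb3 ran against Ccnd1, at -0.94. These correlations share the arrays and the cycle and are descriptions. The difference Ccnd1 minus Ccnd2 varied among the groups with p = 0.053 (adjusted p = 0.11), Ccnd2 minus Ccnd3 with p = 0.22 (adjusted p = 0.26) and Ccnd1 minus Ccnd3 with p = 0.31 (adjusted p = 0.31) in the exact permutation test. The last of these passed without VIII-IX sample 2 (adjusted p = 0.040). A p above the threshold does not show that 2 cyclins follow the same course.

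Ccne1 (10562563), an E-type cyclin that works with Cdk2, was at 9.42 and 9.20 in XII-I, 8.88 and 9.15 in II-IV, 8.73 and 8.88 in IV-VI, 8.68 and 8.55 in VII, 8.85 and 9.01 in VIII-IX, and 8.89 and 8.74 in IX-XI. Both XII-I samples lay above every other array and both VII samples below every other array. The XII-I mean of 9.31 ± 0.16 was 1.62-fold above the VII mean of 8.61 ± 0.09 (SD, n = 2 each; F test, adjusted p = 0.040 in limma). XII-I lay apart from II-IV, the groups II-IV, VIII-IX, IX-XI and IV-VI each overlapped the next, and IV-VI lay apart from VII. Its mean in XII-I exceeded that of the other groups, 8.84, by 0.47 ± 0.10 (SE, n = 2 against 10; adjusted p = 0.026).

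The Ccne1 F call passed in 3 of the 12 leave-outs, those of II-IV sample 1 (0.028), II-IV sample 2 (0.035) and XII-I sample 2 (just under the threshold). It ended without XII-I sample 1 (0.13), IV-VI sample 1 (0.080), IV-VI sample 2 (0.072), VII sample 1 (0.061), VII sample 2 (0.094), VIII-IX sample 1 (0.063), VIII-IX sample 2 (0.065), IX-XI sample 1 (0.069) or IX-XI sample 2 (0.074), and with a replicate block (0.051). The XII-I difference lost its call without XII-I sample 1 (0.19), XII-I sample 2 (0.054), IV-VI sample 1 (0.052) or IX-XI sample 2 (0.053), and with array quality weights (0.055).

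Ccne2 (10503264), the other E-type cyclin, was at 8.97 and 8.61 in XII-I, 9.57 and 8.57 in II-IV, 9.88 and 9.61 in IV-VI, 10.10 and 10.05 in VII, 10.32 and 9.85 in VIII-IX, and 10.22 and 10.15 in IX-XI. Both XII-I samples and II-IV sample 2 were low, and II-IV sample 1 was well above its partner. The IX-XI mean of 10.19 ± 0.05 was 2.63-fold above the XII-I mean of 8.79 ± 0.25 (SD, n = 2 each; F test, adjusted p = 0.029 in limma). IX-XI, VIII-IX and VII each overlapped the next, VII lay apart from IV-VI and IV-VI from II-IV, and II-IV overlapped XII-I. Its mean in XII-I differed from that of the other groups, 9.83, by -1.04 ± 0.22 (SE, n = 2 against 10; adjusted p = 0.027).

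The Ccne2 F call ended without XII-I sample 1 (0.050), XII-I sample 2 (0.068), IV-VI sample 1 (0.056), IV-VI sample 2 (0.055), VII sample 2 (0.059), VIII-IX sample 1 (0.057), VIII-IX sample 2 (0.051), IX-XI sample 1 (0.067) or IX-XI sample 2 (0.064). The XII-I difference lost its call without XII-I sample 1 (0.10), XII-I sample 2 (0.13), IV-VI sample 1 (0.054) or IX-XI sample 2 (0.054). Ccne1 and Ccne2 had a Pearson correlation of -0.78 over the 12 arrays, and Ccna1 correlated with Ccne1 at 0.91 and with Ccne2 at -0.89. The difference Ccne1 minus Ccne2 was 0.51 in XII-I and -1.46 in VII, and it varied among the groups with p = 0.025 in the exact permutation test, which did not hold after adjustment over the 6 pairs (adjusted p = 0.10).

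**Figure D2:**
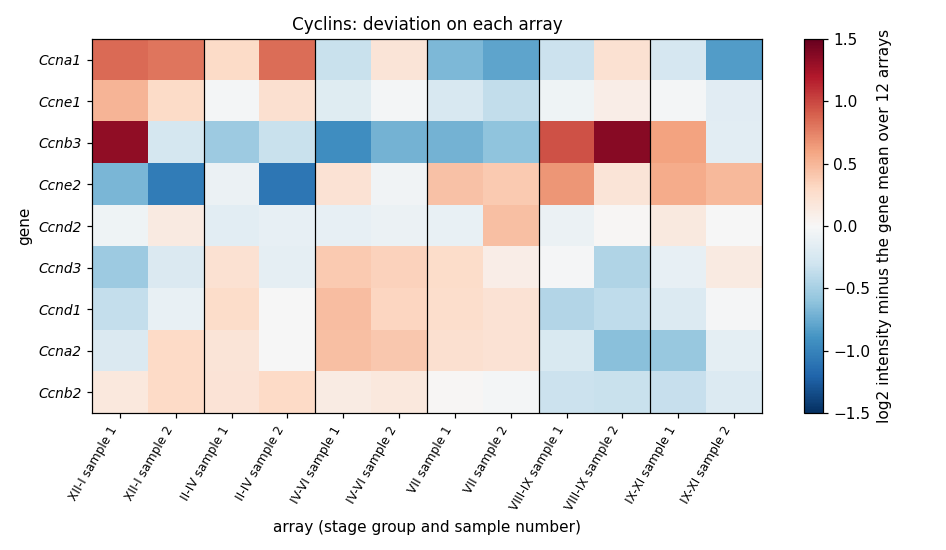
Deviation of each cyclin (rows) from its own mean over 12 arrays, in log2 units, on each array (columns, in the order of the cycle, with lines between the groups). Ccna1 and Ccne1 are high on the XII-I arrays where Ccne2 is low, and Ccnb3 is high on both VIII-IX arrays and on XII-I sample 1.

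Set against the other 5 groups, 3 cyclins rose in XII-I (Ccna1, Ccnb2 and Ccne1, against 7.51% of all genes) and 1 fell (Ccne2, against 3.33%). In VIII-IX 1 rose (Ccnb3, against 3.53%) and 2 fell (Ccnb2 and Ccnd1, against 4.31%). In IX-XI 0 rose (against 1.9%) and 1 fell (Ccnb2, against 1.79%). In II-IV, IV-VI and VII limma called 0 cyclins in either direction, as it called 0.0% of all genes. At an unadjusted p under 0.05 these groups had 3, 5 and 4 cyclins, and 3430, 4060 and 3963 genes. The median difference of the 9 cyclins was 0.044 log2 in XII-I and -0.055 in VIII-IX, against 0.011 and -0.025 for all genes. The number that rose in XII-I was 0 without its sample 1, 1 without its sample 2, IV-VI sample 1 or IX-XI sample 2, and 0 with array quality weights. The number that fell in XII-I was 0 when that group lost its sample 1 or 2 and without IV-VI sample 1 or IX-XI sample 2, 3 without II-IV sample 2 and 2 without VIII-IX sample 2.

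**Figure D3:**
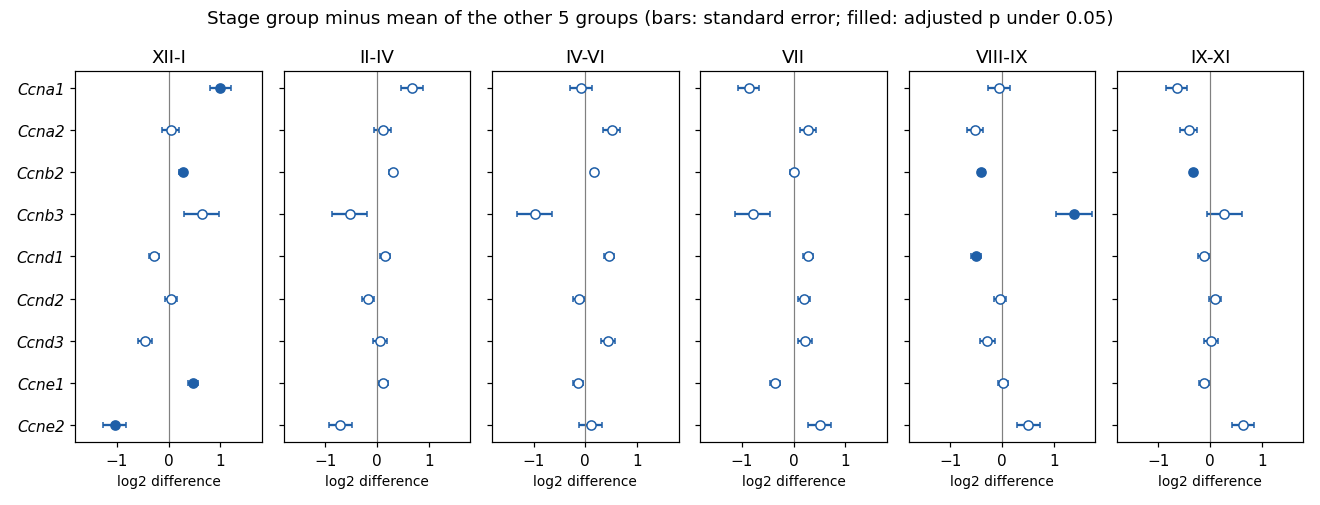
Difference between each stage group and the mean of the other 5, in log2 units (horizontal axis, 1 panel for each group), for the 9 cyclins. Points are limma estimates with standard errors, filled where the adjusted p is under 0.05. The 8 filled points lie in XII-I, VIII-IX and IX-XI.

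Between neighbouring groups, 2 steps held calls among the cyclins. At the step into XII-I from IX-XI, Ccna1 rose by 1.37 ± 0.27 log2 (SE, n = 2 against 2; adjusted p = 0.017 in limma), Ccnb2 by 0.50 ± 0.09 (adjusted p = 0.012) and Ccne1 by 0.49 ± 0.13 (adjusted p = 0.040), against 7.33% of all genes. Ccne2 fell by 1.39 ± 0.29 log2 (adjusted p = 0.019), against 4.63%. The Ccna1 rise was 2.59-fold and the Ccne2 fall 2.63-fold. At the step into VIII-IX from VII, Ccnd1 fell by 0.65 ± 0.13 log2 (adjusted p = 0.043), against 1.66% of all genes, and 0 cyclins rose, against 2.27%. At this step 7 of the 9 cyclins and 5048 of the 19946 genes had an unadjusted p under 0.05. The other 4 steps held 0 calls in limma, with 0.0% of all genes called. At an unadjusted p under 0.05 they had 3 cyclins and 1980 genes into II-IV, 2 cyclins and 1323 genes into IV-VI, 1 cyclin and 1183 genes into VII, and 1 cyclin and 925 genes into IX-XI.

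The Ccna1 rise into XII-I was lost without XII-I sample 1 (0.054), XII-I sample 2 (0.063) or IX-XI sample 2 (0.14). The Ccnb2 rise was lost without XII-I sample 2 (0.059), IX-XI sample 1 (0.074) or IX-XI sample 2 (0.078). The Ccne1 rise was lost without XII-I sample 1 (0.17), XII-I sample 2 (0.063), either IV-VI sample (0.057 each), either VII sample (0.050 each), IX-XI sample 1 (0.095) or IX-XI sample 2 (0.24), with repeated quantile normalization (0.051) and with an intensity trend (0.050). The Ccne2 fall was lost without XII-I sample 2 (0.087), IX-XI sample 1 (0.087) or IX-XI sample 2 (0.12). The Ccnd1 fall was lost without IV-VI sample 1 or 2 (0.072 each), VII sample 1 (0.066), VII sample 2 (0.17), VIII-IX sample 1 (0.12), VIII-IX sample 2 (0.16) or IX-XI sample 1 or 2 (0.056 each), with array quality weights (0.080) and with a replicate block (0.053).

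For each cyclin past the F test, the genes of most similar course were those with the highest Pearson correlation over the 12 arrays, among 3599 genes that passed the F test themselves and are not predicted genes, receptor families or small RNAs. Ccna1 was closest to Dpy19l2 (0.996), Ccdc62 (0.993) and Acsl6 (0.993). Ccne1 was closest to Slc22a18 (0.992), Dlgap5, a spindle protein (0.992), and Zscan20 (0.990). Ccnb2 was closest to Cfap47 (0.997), Cd82 (0.986) and Ppp2r2d, a regulatory subunit of protein phosphatase (0.985). Cfap47 ranged 6.71-fold where Ccnb2 ranged 1.49-fold. Ccnb3 was closest to Lat2 (0.981), Tbccd1 (0.978) and Iqcc (0.977). Ccnd1 was closest to Fam217a (0.983), Slc13a2, a carboxylate transporter (0.978), and Cdyl2 (0.975). Ccne2 was closest to Cyp51, an enzyme of cholesterol synthesis (0.993), Scamp1 (0.992) and P2rx3, an ATP-gated channel (0.992).

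Of 29 measured genes in the list of kinases that cyclins switch on and their regulators, 13 passed limma's F test and 16 did not, against 19.9% of all genes called. The median range of the 29 was 0.504 log2, against 0.341 for all genes. Cdk1, the kinase of cell division, was highest in XII-I, 1.96-fold above VII, and Cdk6, a partner of D-type cyclins, 1.84-fold. Cdc25c, a phosphatase that activates Cdk1, was 2.27-fold higher in II-IV than in VIII-IX, and Skp2, which marks proteins for destruction, was 2.25-fold higher in VIII-IX than in IV-VI. E2f5, a transcription factor that works with the retinoblastoma family, was 2.69-fold higher in IV-VI than in VIII-IX. Cdkn2d, an inhibitor of Cdk4 and Cdk6, was 2.15-fold higher in VIII-IX than in IV-VI. Cdc25a, a phosphatase that activates cyclin-dependent kinases, was 1.94-fold higher in XII-I than in IX-XI. In XII-I 4 members rose against the other groups (Cdk1, Cdk6, Cdc25a and Fbxw7, against 7.51% of all genes) and 0 fell (against 3.33%). In VIII-IX 1 rose (Cdk2, which did not pass the F test), near the 3.53% of all genes, and 5 fell (Cks1b, Cdc25a, Cdc25c, Wee1 and E2f5, against 4.31%). The 13 became 5 without IV-VI sample 1 or VIII-IX sample 2, 6 without IV-VI sample 2 or VII sample 2, and 7 without VII sample 1, VIII-IX sample 1 or IX-XI sample 1 or 2. The 4 in XII-I became 0 without XII-I sample 1, 2 without IV-VI sample 1 or IX-XI sample 2, and 1 with array quality weights. The 5 in VIII-IX became 0 without either VIII-IX sample and 1 with array quality weights. The Cdk2 call ended without any 1 sample of IV-VI, VII or VIII-IX or without IX-XI sample 2, and the number of members that rose in VIII-IX was 6 and 3 when XII-I lost its sample 1 or 2, and 2 and 4 when II-IV did.

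Of 18 other cyclins and cyclin-box genes, 7 passed the F test, against 19.9% of all genes, and the median range of the 18 was 0.624 log2, against 0.341. Ccnf, a cyclin that serves as an F-box protein in a ubiquitin ligase, averaged 10.46 in XII-I and 8.49 in IX-XI, a 3.90-fold difference. Ccnjl was 3.72-fold higher in VIII-IX than in IV-VI, Ccnt1, a cyclin of transcription elongation, 2.22-fold higher in IV-VI than in VIII-IX, Ccng2 2.12-fold higher in II-IV than in IX-XI, and Ccno 1.68-fold and Cnppd1 2.00-fold above VII in XII-I. In XII-I 5 rose against the other groups (Ccnc, Ccnf, Ccng2, Ccnj and Cnppd1, against 7.51% of all genes) and 1 fell (Ccni, near the 3.33% of all genes). Of these, Ccnj and Ccni did not pass limma's F test (adjusted p = 0.14 and 0.071). The 7 became 3 without IV-VI sample 2, VII sample 2 or either VIII-IX sample, and 4 without XII-I sample 1, IV-VI sample 1 or IX-XI sample 2. The 5 in XII-I became 0 when its sample 1 was left out, 1 when its sample 2 was, 2 without IX-XI sample 2, 2 with array quality weights, and 3 without II-IV sample 1, IV-VI sample 1, IX-XI sample 1, either VII sample or either VIII-IX sample. The Ccni call ended without any 1 sample of XII-I, IV-VI, VII or IX-XI or without VIII-IX sample 1, and 2 fell without either II-IV sample.

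Of 21 measured genes of cyclin degradation, 9 passed the F test, against 19.9% of all genes, and XII-I held the highest mean of 7. The share of all called genes with their highest mean in XII-I was not counted. Over all genes, XII-I also had the most genes called higher than the other groups, 1497, against 705 in VIII-IX and 378 in IX-XI. The median range of the 21 was 0.430 log2, against 0.341. Cdc20, an activator of the anaphase-promoting complex, had an XII-I mean 1.57-fold above that of VII, and Fzr1, the other activator, 1.48-fold. Of its subunits, Cdc26 had an XII-I mean 1.51-fold above that of IX-XI, and Anapc2 1.40-fold above that of VIII-IX. Fbxo43, which inhibits that complex, was 3.02-fold higher in VIII-IX than in II-IV. Ube2c, an enzyme that loads ubiquitin for the complex, was 1.77-fold higher in IV-VI than in IX-XI. In XII-I 7 rose against the other groups, Cdc20, Fzr1, Anapc2 and Cdc26 among them (against 7.51% of all genes), and 0 fell. In VIII-IX Fbxo43 rose (against 3.53%), and Anapc2 and Ube2c fell (against 4.31%). The 9 became 2 without either IX-XI sample, 3 without VII sample 2, either IV-VI sample or either VIII-IX sample, 4 without either XII-I sample and 5 without VII sample 1. The 7 in XII-I became 0 without either XII-I sample, 1 without IV-VI sample 1, 2 without IX-XI sample 2, 3 when sample 1 of VIII-IX was left out, 4 without VII sample 2 and 1 with array quality weights. The Fbxo43 call ended in every single leave-out except those of the XII-I samples. The 2 that fell in VIII-IX became 0 without any 1 sample of IV-VI, VIII-IX or IX-XI and 1 without XII-I sample 2, II-IV sample 1 or either VII sample. With array quality weights both counts were 0.

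**Figure D4:**
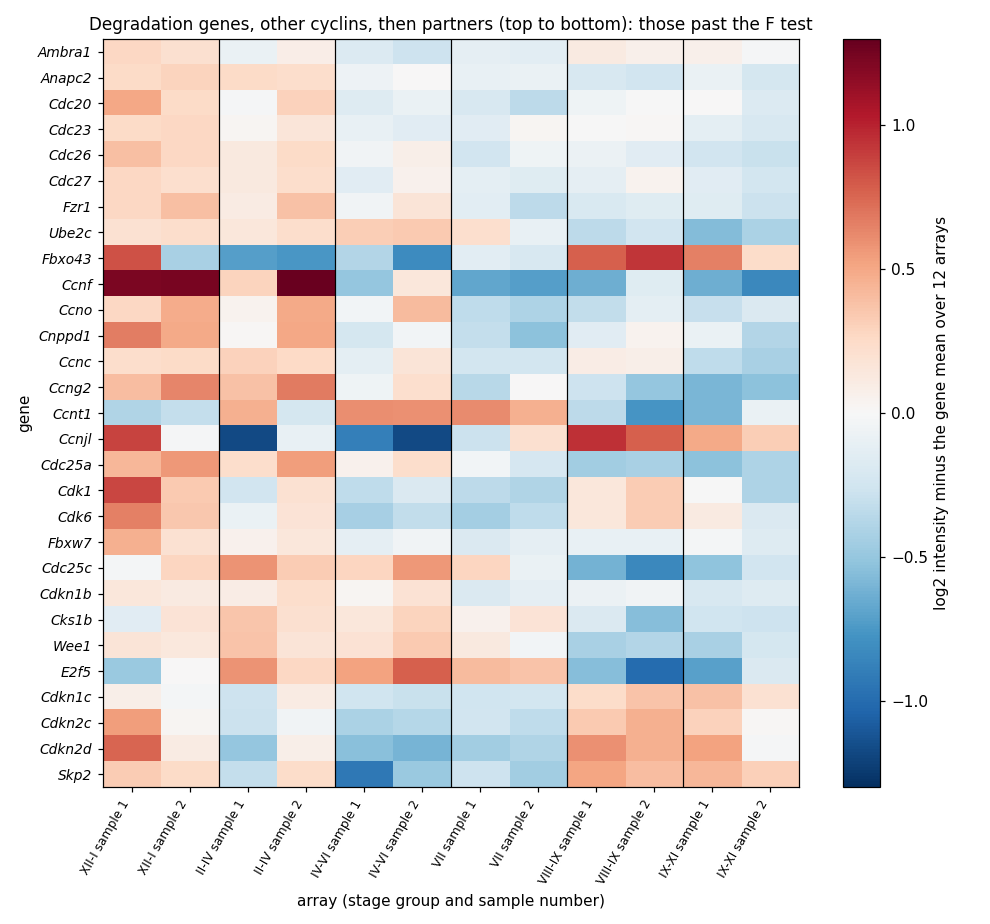
Deviation from the gene's mean over 12 arrays, in log2 units, for the 29 genes of the 3 lists that passed limma's F test (rows: cyclin degradation, then other cyclins, then partners and regulators) on each array (columns, in the order of the cycle). Ccnf is high on both XII-I arrays and on II-IV sample 2. Ccnjl and Fbxo43 are highest on XII-I sample 1 and on both VIII-IX arrays, and next highest on both IX-XI arrays.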

How the data were processed

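RNA of 12 testis samples was amplified from 100 ng and 3.75 ug of cDNA labelled for Affymetrix Mouse Gene 1.0 ST arrays, per the labels' protocols. The authors deposited 1 table of intensity values, made with RMA per the submitters' processing notes; its version and genome build are not given in the sources used here. RMA makes array distributions alike, so changes are relative to the other transcripts. The number of arrays limits the precision.

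Values were taken to log2 with nothing added. Of 28853 probe sets, 21797 had 1 gene symbol, 1613 several and 5443 none. For the 999 genes with several probe sets the brightest was kept, which left 19946 genes. RefSeq IDs changed 0 symbols. Groups follow the titles. A model of 6 group means was fitted with limma 3.58.1 in R 4.3.3 (lmFit, eBayes, 6 residual degrees of freedom). Contrasts set each group against the mean of the other 5 and against the group before it. P-values were adjusted by Benjamini-Hochberg over all genes in each test, with a threshold of 0.05. Within-array differences of 6 pairs of cyclins were tested by exact permutation. If only 1 group differs, that test has little power, since 1 in 11 splits keeps a given pair together. Both tests were tested on simulated data. The cyclins and the gene lists were chosen with earlier results of these data known. The genes named are the 9 cyclins, the 3 genes closest to each that passed, and list members that passed, at most 6 by range, with those behind a count.

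Cdkn1a, Spdya, Skp1a, Rhox5, Insl3 and Lhcgr, members of these lists, were not measured. Of the 4 peritubular myoid and 4 endothelial markers, 0 passed the F test, against 19.9% of all genes. Alternatives were repeated quantile normalization, leaving out the dimmest 30% of probe sets, the mean of a gene's probe sets, array quality weights, the sample number as a block, an intensity trend, and each array left out. Leaving out sample 2 of both VIII-IX and IX-XI was chosen after seeing the data, as were the promoter motifs and their window.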

Additional observations from a re-analysis of the deposited data

How the results depend on the processing

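No alternative reversed the direction of a called cyclin difference. With the sample number as a replicate block, 4 cyclins passed the F test in place of 6 (Ccnb3 and Ccne1 were lost), 9 differences from the other groups passed in place of 8, and 4 steps in place of 5. The numbers were not taken to pair samples: the correlation of same-numbered deviations between groups ran from -0.35 to 0.54, and 7 of 15 pairs of groups were over 0.1. With each array left out in turn, the cyclins past the F test numbered 2 to 6, the differences from the other groups 3 to 11, the steps 0 to 6 and the pairs of cyclins 0 to 1, against 0 pairs with all arrays. A group left with 1 array is assumed to vary like the others. Without sample 2 of both VIII-IX and IX-XI, the first 3 of these counts were 0. Over all genes, the 3973 past the F test became 1522 to 4269 over the leave-outs, the fewest without sample 1 of VIII-IX. The 2161 calls in XII-I became 0 to 3276 over the leave-outs and 552 with array quality weights, the 1564 in VIII-IX 0 to 2711 and 386, and the 736 in IX-XI 0 to 1265 and 2428. The 2386 at the step into XII-I became 11 to 2771 over the leave-outs, and the 784 at the step into VIII-IX became 0 to 1678, 11 with array quality weights, 260 with the block and 1187 without the dimmest probe sets. The 0 calls in II-IV, IV-VI and VII became up to 1218, 1381 and 981 over the leave-outs, 749 in II-IV with the block and 3034 in IV-VI with array quality weights, and the 0 calls at other steps up to 393. The causes were not tested.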

Other observations

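Among the 9 cyclins, the 2 samples of a stage group differed most for Ccnb3 in XII-I, where sample 1 was at 8.65 and sample 2 at 7.06, and next most for Ccne2 in II-IV, where sample 1 was at 9.57 and sample 2 at 8.57. The first of these Ccnb3 values lay between the VIII-IX samples, at 8.28 and 8.69, and the other close to II-IV sample 2, at 6.99. On II-IV sample 2, Ccne2 and Ccna1, at 8.57 and 12.76, lay close to XII-I sample 2, at 8.61 and 12.72. In XII-I, Fbxo43 was at 11.15 in sample 1 and 9.91 in sample 2, and Ccnjl at 9.20 and 8.31. Ccnf was at 9.52 on II-IV sample 1 and 10.51 on II-IV sample 2, where XII-I had 10.45 and 10.46. These genes were chosen after their values were seen.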
